A study of Mus musculus with 16 samples.

Results

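The expression of 34 genes of fatty acid uptake and oxidation was examined in the tibialis anterior, the largely fast-twitch muscle at the front of the lower leg, in mice treated with growth differentiation factor 15 (GDF15). The genes were chosen by symbol for their place in the pathway, from lipoprotein lipase at the capillary wall to the flavoproteins that pass electrons to the respiratory chain, together with PPAR regulators. All 34 were present among the 14538 genes of the deposited table, and all 34 were among the 11841 genes that were tested. Vehicle (5 mice), GDF15 (6 mice) and pair-fed (5 mice) groups were sequenced, each mouse as its own library, so the spread and the p-values below are between mice.

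All mice were male WT animals on the C57BL/6 background (C57BL/6J in the methods of the study) that were placed on a NASH diet at about 29 °C from 8 weeks of age and were single-housed. GDF15 mice received recombinant GDF15 in its buffer under the skin each morning. In the labels 0.3, 1 and 5 nmol/kg are named as doses, without saying which of them these mice received or for how many days. The daily ration of pair-fed mice was set by the previous day's intake in the GDF15 group. GDF15 and pair-fed mice thus differ in the agent and were matched in the amount of food, whereas vehicle mice were not matched to them. Mice were killed in the fed state. The comparison with pair-fed mice asks what GDF15 does beyond a lower food intake. The comparison of pair-fed with vehicle mice asks what the lower intake does, together with its delivery as a set daily ration.

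Working muscle takes fatty acids from circulating lipoproteins and albumin, traps them as acyl-CoA and imports them into mitochondria as carnitine esters. Repeated rounds of dehydrogenation, hydration, a further dehydrogenation and thiolysis then shorten the chain, and the electrons reach the respiratory chain through NADH and the electron transfer flavoprotein. Import is held back by malonyl-CoA, and many genes of the pathway are targets of the lipid-sensing nuclear receptors PPARα and PPARδ.

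The approximate depth of the libraries was 9473999 to 15031981 reads. When the libraries were clustered on all 11841 genes by complete linkage, GDF15 mouse 1 and pair-fed mice 2, 5 and 6 formed the smaller of the main branches, and the calls and medians of the 34 genes and the calls of the other lists are therefore also given without these 4 libraries, a choice made after the data were seen. Muscle fibre transcripts were abundant in every library. The 6 muscle fibre markers (Acta1, Ckm, Myh4, Myh1, Tnnt3 and Actn3) together gave 1936000 to 2408000 normalized counts per library. Values are normalized counts, recovered from the deposited log2 values, and they compare mice within a gene and not 1 gene with another. In bulk muscle, fewer cells of a type and less RNA per cell cannot be told apart.

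Of the 34 genes, 7 fell in pair-fed mice at an adjusted p under 0.1 (limma, Benjamini-Hochberg over all tested genes) and 0 rose, a share of 20.6% lower, whereas 3.17% of all tested genes were called lower. The 7 were Cd36, Fabp3, Slc25a20, Acadvl, Acadl, Decr1 and Ppara, and their log2 fold changes lay between -0.84 and -0.36. With the added threshold of 0.6 on the log2 fold change, 2 remained, Fabp3 and Ppara, against 0.49% of all tested genes in that direction. The log2 fold change was negative in 33 of 34 genes with a median of -0.30, whereas it was negative in 49.8% of all tested genes with a median of 0.00. The 7 calls became 0 without the 4 libraries that stood apart and 1 without any of 3 single mice. An unadjusted p under 0.05 was reached by 22 of the 34 (64.7%) and by 18.9% of all tested genes.

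In GDF15 muscle 0 of the 34 genes passed the test in either comparison. Against vehicle, limma called 0 of 34 genes, where 0.769% of all tested genes were called. An unadjusted p under 0.05 was reached by 10 of the 34 (29.4%) and by 1308 of the 11841 tested genes. The log2 fold change was negative in 33 of 34 genes with a median of -0.20, and Ppard alone had a positive value of 0.06. Against pair-fed, 0 of 34 genes were called by limma, where 2.17% of all tested genes were called. An unadjusted p under 0.05 was reached by 1 of the 34, Ppard (2.94%), and by 13.2% of all tested genes. There the log2 fold change was positive in 29 of 34 genes with a median of 0.11, and the 95% confidence intervals reached from -0.66 (Angptl4) to 0.71 (Ppara), so the test does not show that the groups were alike. Both comparisons with vehicle share the same 5 control mice. The values of 0 genes were free of overlap in either comparison of GDF15, where 0.861% of all tested genes lay wholly below vehicle and 1.77% were free of overlap with pair-fed in either direction. The group means ran vehicle, GDF15, pair-fed from high to low in 27 of 34 genes and vehicle, pair-fed, GDF15 in 5. The 4 libraries that stood apart were 3 pair-fed and 1 GDF15. Without them, the log2 fold change in GDF15 against pair-fed was negative in 22 of 34. With 1 library left out at a time, its median ran from 0.04 (without pair-fed mouse 2, 11 of 34 negative) to 0.16 (without GDF15 mouse 1 or pair-fed mouse 3).

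**Figure D1:**
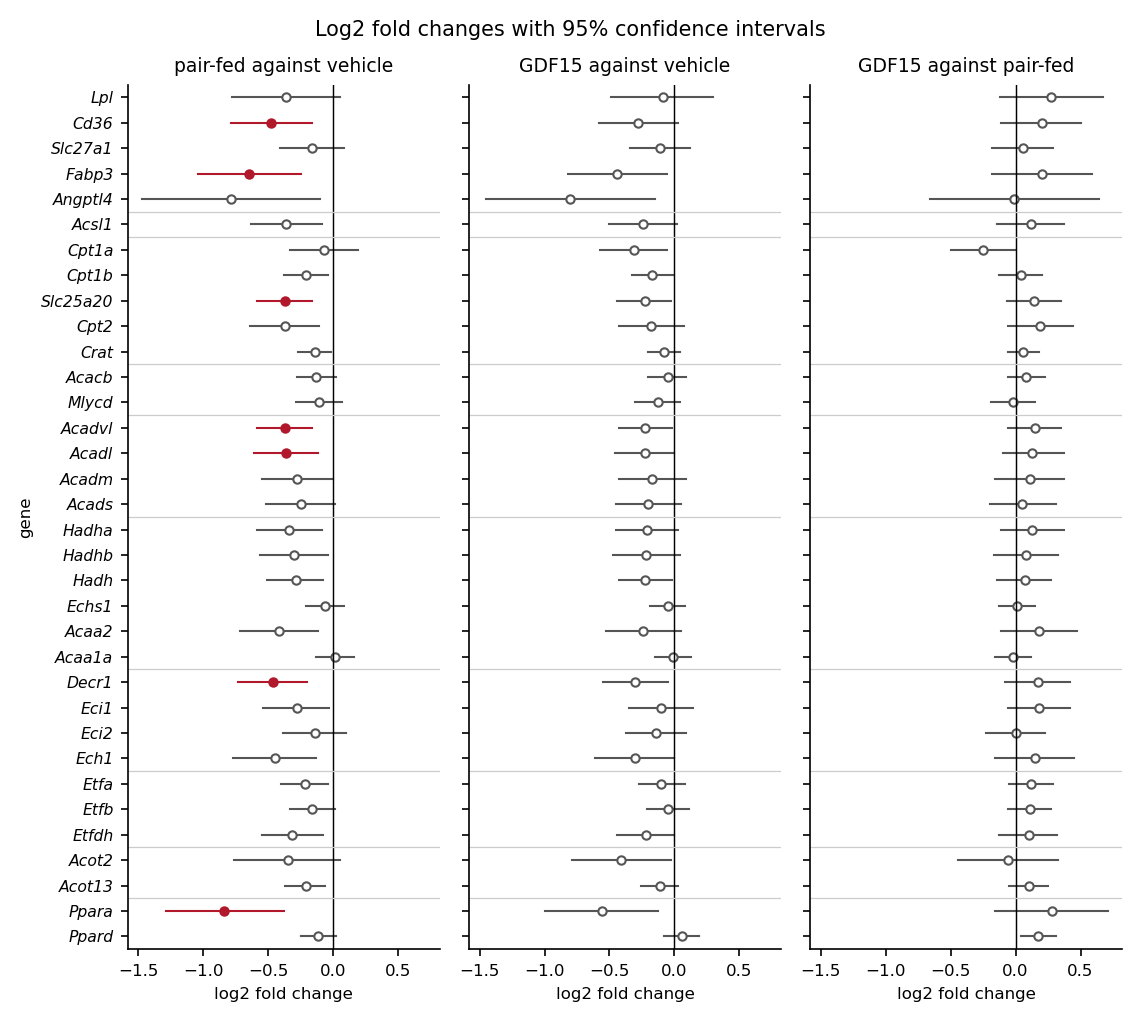
Log2 fold change of each of the 34 genes (circles) with its 95% confidence interval (lines) in the 3 comparisons, on a shared axis, with genes ordered by role. Filled red circles mark the 7 genes with an adjusted p under 0.1, all in pair-fed against vehicle. Nearly all circles lie left of 0 in both comparisons with vehicle, and 29 of 34 lie right of 0 in GDF15 against pair-fed.

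These counts rested on few mice. Without the 4 libraries that stood apart, which left 2 pair-fed and 5 GDF15 mice, 0 genes were called in any comparison. The median log2 fold change was then -0.09 in pair-fed against vehicle and -0.13 in GDF15 against vehicle. In GDF15 against pair-fed it was -0.04, and so changed sign. The removal was uneven. It took out pair-fed mice 2, 5 and 6, the lowest of their group in mean log2 difference from vehicle over the pathway genes (-0.57, -0.29 and -0.46). Of the low GDF15 mice it took out mouse 1 (-0.5) and kept mouse 6 (-0.43). The change of sign thus cannot be told apart from the choice of libraries removed. Leaving out 1 library at a time moved the 7 calls to between 1 and 17. A single call was left without vehicle mouse 2, pair-fed mouse 2 or pair-fed mouse 6. The median log2 fold change in pair-fed against vehicle was -0.25, -0.21 and -0.25 in these fits, with 33, 34 and 33 of 34 genes negative. There were 2 calls without vehicle mouse 5 or pair-fed mouse 5, 3 without vehicle mouse 1 and 4 without vehicle mouse 4. There were 13 calls without GDF15 mouse 1 or pair-fed mouse 4 and 17 without pair-fed mouse 3.

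Promoter sequence is shown for Cd36 and Acadvl because these were the 2 of 34 genes whose pair-fed values lay wholly below vehicle, where 2.65% of all tested genes did so. RefSeq windows of GRCm38.p6 from 250 bases before to 50 bases after the gene start were held for 27 of the 34 genes, and the 250 upstream bases are printed 5′ to 3′ on the strand of the gene. The Cd36 stretch is chr5:17835897-17836146, minus strand, inside the gene span and in an intron of transcripts that start farther upstream. The Acadvl stretch is chr11:70015429-70015678, minus strand, before the annotated gene. The RefSeq start lies 179 bases upstream of the nearest GENCODE transcript start for Cd36 and 17 bases upstream for Acadvl, and which start the measured transcripts used is not known from these data. Capitals mark, in Cd36, a match with at most 2 mismatches to the DR1 element (AGGTCA, any base, AGGTCA) that PPAR and RXR heterodimers bind, here on the opposite strand, and in Acadvl an exact AGGTCA core. Cd36 also holds an exact core on the opposite strand, which starts at position -228 from the gene start and is left in lower case.
Cd36: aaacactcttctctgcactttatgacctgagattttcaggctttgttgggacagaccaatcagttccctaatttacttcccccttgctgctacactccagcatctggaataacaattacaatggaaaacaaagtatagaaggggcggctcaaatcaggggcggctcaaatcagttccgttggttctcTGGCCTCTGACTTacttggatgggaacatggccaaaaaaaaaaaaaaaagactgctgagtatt
Acadvl: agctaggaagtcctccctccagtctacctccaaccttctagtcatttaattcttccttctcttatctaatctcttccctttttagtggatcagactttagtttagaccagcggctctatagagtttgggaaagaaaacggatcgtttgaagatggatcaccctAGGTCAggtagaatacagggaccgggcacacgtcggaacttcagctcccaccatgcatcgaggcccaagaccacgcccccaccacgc
The DR1 element, searched on both strands, occurred in the windows of 4 of the 27 genes (14.8%) and of 4.4% of all 27025 genes with a window. The 4 matches, written 5′ to 3′ in the sense of the element, were AAGTCAGAGGCCA in Cd36 (chr5:17835947-17835959), AGGTCACGGGTCC in Echs1 (chr7:140116492-140116504), AGGGCAAAGGTAA in Etfa (chr9:55512308-55512320) and AGGTGAAAGGTCG in Slc25a20 (chr9:108662142-108662154). Each carried 2 mismatches. Of these genes Cd36 and Slc25a20 fell in pair-fed mice, whereas Etfa (log2 fold change -0.22) and Echs1 (-0.06) did not pass the test. The other called genes Fabp3, Acadvl, Acadl and Ppara had a window without this element, and Decr1 had no window. A link between the element and the calls was not tested. The estrogen-related receptor element (TCA followed by AGGTCA, no mismatch) was found in 0 of the 27 genes and in 0.466% of all genes with a window. The AGGTCA core, which is contained in both longer elements, was found in 22.2% and 18.1% of these genes.

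Among the 5 genes of uptake, Cd36 and Fabp3 fell in pair-fed mice. Cd36 (chr5:17781690-17888801, minus strand in GRCm38, as the other positions of genes here), the membrane protein through which muscle takes up long-chain fatty acids, gave 6931, 8341, 7113, 7201 and 6634 normalized counts in vehicle mice 1 to 5. In pair-fed mice 2 to 6 it gave 3978, 6559, 6285, 5418 and 4250. All 5 pair-fed values lay below the lowest vehicle value, though that of mouse 3 did so by a small margin. The GDF15 mice ranged from 4458 to 7372 with a median of 6521, and 4 of the 6 lay below the lowest vehicle value. Against vehicle it had a log2 fold change of -0.48 (SE 0.15, adjusted p = 0.0936) in pair-fed and -0.28 (SE 0.15, adjusted p = 0.50) in GDF15 mice.

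Fabp3 (chr4:130308595-130315463, plus strand) encodes the cytosolic fatty acid binding protein of heart and skeletal muscle and had the highest level per length of the 34, at 15600 normalized counts per kilobase of transcript in vehicle mice. The vehicle values were 13983, 15031, 10246, 12405 and 12549 normalized counts. The pair-fed values were 5630, 10862, 10452, 8447 and 6638. Mice 3 and 4 of the pair-fed group lay above the lowest vehicle mouse, and mice 2, 5 and 6 below it. The GDF15 mice spanned 6526 to 12108 around a median of 10567. Against vehicle, Fabp3 thus differed by -0.65 on the log2 scale (SE 0.19, adjusted p = 0.0667) in pair-fed mice and by -0.44 (SE 0.18, adjusted p = 0.366) in GDF15 mice. The Fabp3 transcript overlaps exons of genes on the opposite strand, and the strand setting of the counting is not given in the sources used here.

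The other genes of uptake did not pass the test in any comparison. Lpl, the lipase that frees fatty acids from circulating triglycerides, gave 8093 ± 1166 (SD, n = 5) normalized counts in vehicle, 7734 ± 1836 (SD, n = 6) in GDF15 and 6485 ± 1903 (SD, n = 5) in pair-fed mice. Slc27a1, a fatty acid transport protein of the muscle membrane, had log2 fold changes of -0.16 in pair-fed and -0.11 in GDF15 mice against vehicle. Angptl4, a secreted inhibitor of Lpl and a PPAR target, had few counts and varied widely within groups. Its 5 vehicle values were 84.9, 59.4, 92.5, 46.1 and 39.2, the pair-fed values 24.7, 34.1, 71.8, 21.2 and 40.3, and the GDF15 values ran from 24.1 to 58.4. Its log2 fold changes against vehicle were -0.79 (adjusted p = 0.197) in pair-fed and -0.80 (adjusted p = 0.338) in GDF15 mice, with all groups overlapping.

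Activation to acyl-CoA was represented by Acsl1, the main long-chain acyl-CoA synthetase of muscle. The vehicle mice gave 8186, 8717, 7513, 8043 and 7603 normalized counts and the pair-fed mice 4796, 7334, 7684, 6226 and 5633. Pair-fed mouse 4 alone reached the vehicle range. With GDF15 values of 5339 to 8380, the log2 fold changes of -0.36 (pair-fed) and -0.24 (GDF15) against vehicle carried adjusted p-values of 0.136 and 0.485 by limma and did not pass.

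Of the 5 genes of the carnitine shuttle, Slc25a20 fell in pair-fed mice. Slc25a20 (chr9:108662088-108684641, plus strand) encodes the carrier that exchanges acylcarnitine for carnitine across the inner mitochondrial membrane. It gave 1941, 1953, 1629, 1831 and 1875 normalized counts in vehicle and 1153, 1589, 1680, 1446 and 1309 in pair-fed mice, so that pair-fed mouse 4 alone lay above the lowest vehicle mouse. The GDF15 range was 1263 to 1860 with a median of 1636. Its log2 fold change against vehicle was -0.37 (SE 0.10, adjusted p = 0.0534) in pair-fed and -0.23 (SE 0.10, adjusted p = 0.385) in GDF15 mice. Cpt2, which regenerates acyl-CoA on the matrix side, stood at the same -0.37 on the log2 scale in pair-fed mice, with a larger error (SE 0.12, adjusted p = 0.108).

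The outer-membrane step is carried out by carnitine palmitoyltransferase 1, whose muscle form is Cpt1b and liver form Cpt1a. Cpt1b had 2600 normalized counts per kilobase of transcript in vehicle muscle and Cpt1a 39.1. Cpt1b did not pass the test, at -0.21 (adjusted p = 0.171) in pair-fed and -0.17 (adjusted p = 0.418) in GDF15 mice against vehicle, and its exons are shared with a read-through gene on the same strand. Cpt1a differed from the other shuttle genes in the order of its means, which was vehicle (169 ± 8.58, SD, n = 5), pair-fed (164 ± 32.9, SD, n = 5) and GDF15 (137 ± 18.1, SD, n = 6). Of the 6 GDF15 mice, 5 lay below the lowest vehicle mouse, against 2 of the 5 pair-fed mice. In GDF15 mice Cpt1a had a log2 fold change of -0.31 (SE 0.12, adjusted p = 0.323) against vehicle and -0.25 (95% confidence interval -0.50 to 0.00, adjusted p = 0.387) against pair-fed, so neither passed. Crat, which interconverts acetyl-CoA and acetylcarnitine, varied least among the shuttle genes, from 9972 to 10737 normalized counts in vehicle, 8770 to 10833 in GDF15 and 8555 to 10270 in pair-fed mice.

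The pair of genes that set malonyl-CoA, the inhibitor of carnitine palmitoyltransferase 1, did not pass the test in any comparison. Acacb, the acetyl-CoA carboxylase isoform at the mitochondrial surface, gave 5811, 5504, 5111, 5480 and 5143 normalized counts in vehicle mice, 4335, 5406, 5320, 4941 and 4739 in pair-fed mice and 4282 to 5769 in GDF15 mice. Its log2 fold changes were -0.13 (adjusted p = 0.342) in pair-fed and -0.05 (adjusted p = 0.847) in GDF15 mice against vehicle. Mlycd, the decarboxylase that removes malonyl-CoA, had values of -0.11 and -0.13 in the same comparisons, so the synthetic and the degrading enzyme stood at like values, each with an interval that included 0.

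Of the 4 acyl-CoA dehydrogenases, which open each round of the spiral and differ in the chain length they accept, Acadvl and Acadl fell in pair-fed mice. Acadvl (chr11:70010183-70015411, minus strand), for very long chains, gave 7880, 8691, 7712, 8075 and 7747 normalized counts in vehicle mice and 5087, 7391, 6890, 6450 and 5398 in pair-fed mice. Every pair-fed value was below every vehicle value, as was also the case for Cd36. The GDF15 mice ran from 5721 to 7813 with a median of 7186, and 4 of 6 lay below the lowest vehicle mouse. For Acadvl the log2 fold change against vehicle was -0.37 (SE 0.10, adjusted p = 0.0509) in pair-fed and -0.23 (SE 0.10, adjusted p = 0.393) in GDF15 mice. Exons of Acadvl overlap those of a gene on the opposite strand.

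Acadl (chr1:66830839-66863277, minus strand), for long chains, gave 7351, 8523, 6893, 7419 and 7310 normalized counts in vehicle mice, 4763, 7134, 6664, 6057 and 4841 in pair-fed mice and 5283 to 7316 in GDF15 mice. Only pair-fed mouse 3 reached the vehicle range. Its log2 fold change was -0.36 (SE 0.12, adjusted p = 0.0913) in pair-fed and -0.23 (SE 0.11, adjusted p = 0.457) in GDF15 mice. Acadm, for medium chains, and Acads, for short chains, had values of -0.28 (adjusted p = 0.258) and -0.25 (adjusted p = 0.285) in pair-fed mice, with ranges that overlapped vehicle. Each of the 4 dehydrogenases had a negative log2 fold change in both comparisons with vehicle and a positive one, between 0.05 and 0.15, in GDF15 against pair-fed. Without the 4 libraries that stood apart, Acadvl was at -0.01 and Acadl at -0.06 in GDF15 against pair-fed.

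The 6 genes from hydration to thiolysis gave 0 calls in the 3 comparisons by limma. Hadha and Hadhb encode the subunits of the mitochondrial trifunctional protein, which carries out the last steps on long chains. Hadha gave 9195, 10955, 8604, 9498 and 9399 normalized counts in vehicle mice, 5941, 9107, 8706, 7642 and 6595 in pair-fed mice and 6367 to 9658 in GDF15 mice, with 3 of the 5 pair-fed mice below the lowest vehicle mouse. The log2 fold change in pair-fed mice was -0.34 (adjusted p = 0.122) for Hadha and -0.30 (adjusted p = 0.203) for Hadhb. Hadh, the hydroxyacyl-CoA dehydrogenase for shorter chains, had -0.29 (adjusted p = 0.118), and Acaa2, the mitochondrial thiolase, -0.42 (adjusted p = 0.119). Echs1, the short-chain hydratase, and Acaa1a, a peroxisomal thiolase, stood near 0 in all comparisons, at -0.06 and 0.01 in pair-fed mice. Acaa1a has a close paralog, Acaa1b, with which reads can be shared.

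Among the 4 genes that bring unsaturated fatty acids into the spiral, Decr1 fell in pair-fed mice. Decr1 (chr4:15917240-15945507, minus strand), the mitochondrial dienoyl-CoA reductase, gave 3059, 3389, 2597, 2980 and 2897 normalized counts in vehicle and 1801, 2639, 2367, 2304 and 1797 in pair-fed mice. Pair-fed mouse 3 alone overlapped with the vehicle range. The GDF15 mice ran from 1901 to 2951 with a median of 2551, and the log2 fold change was -0.46 (SE 0.12, adjusted p = 0.0474) in pair-fed and -0.30 (SE 0.12, adjusted p = 0.346) in GDF15 mice.

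Ech1, an isomerase of dienoyl-CoA intermediates, had a log2 fold change of like size with more spread. It gave 5091, 5829, 4688, 5079 and 4945 normalized counts in vehicle, 2769, 4847, 4282, 4215 and 3045 in pair-fed and 3173 to 5084 in GDF15 mice. The values of -0.45 (SE 0.15, adjusted p = 0.112) in pair-fed and -0.30 (adjusted p = 0.455) in GDF15 mice did not pass. The enoyl-CoA isomerases Eci1 and Eci2 had values of -0.28 and -0.14 in pair-fed mice, with adjusted p-values of 0.209 and 0.549.

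The electron transfer flavoprotein, made of Etfa and Etfb, and its dehydrogenase Etfdh hand electrons from the acyl-CoA dehydrogenases to ubiquinone. Etfa gave 3356, 3872, 3227, 3529 and 3386 normalized counts in vehicle, 2554, 3384, 3311, 3075 and 2700 in pair-fed and 2758 to 3604 in GDF15 mice. None of the 3 genes passed the test, and the log2 fold changes in pair-fed mice were -0.22 for Etfa, -0.16 for Etfb and -0.32 for Etfdh (adjusted p = 0.182, 0.314 and 0.126).

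The thioesterases Acot2 and Acot13, which release fatty acids from CoA in mitochondria, did not pass either. Acot13 gave 931, 1069, 997, 968 and 917 normalized counts in vehicle, 759, 924, 879, 912 and 750 in pair-fed and 814 to 1029 in GDF15 mice, with a log2 fold change of -0.21 (adjusted p = 0.124) in pair-fed mice. Acot2 had -0.35 (adjusted p = 0.332) in pair-fed and -0.41 (adjusted p = 0.411) in GDF15 mice against vehicle, and its near-identical paralog Acot1 can share its reads.

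Ppara (chr15:85734983-85802819, plus strand), the nuclear receptor that drives fatty acid oxidation genes on fasting, fell in pair-fed mice. It was a gene of few counts, with 63.1, 68.7, 80.0, 62.7 and 89.1 normalized counts in vehicle mice and 48.7, 64.6, 26.3, 33.2 and 36.3 in pair-fed mice. Pair-fed mouse 3 overlapped with vehicle and the other 4 lay below it. The GDF15 values ran from 35.6 to 72.9 with a median of 47.4, and 5 of 6 were below the lowest vehicle mouse. The log2 fold change of Ppara was -0.84 (SE 0.22, adjusted p = 0.0409) in pair-fed and -0.56 (SE 0.21, adjusted p = 0.31) in GDF15 mice. On the scale of the deposited values, which compresses genes of few counts, Ppara was at -0.23 in pair-fed mice and still called (adjusted p = 0.0397).

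Ppard, the receptor isoform that is more abundant in muscle, had 169 normalized counts per kilobase of transcript in vehicle mice, against 21.3 for Ppara. It gave 564, 624, 495, 517 and 564 normalized counts in vehicle, 485, 494, 555, 543 and 469 in pair-fed and 536 to 608 in GDF15 mice. It had the smallest p-value of the 34 in GDF15 against pair-fed, with a log2 fold change of 0.17 (SE 0.06, 95% confidence interval 0.04 to 0.31, adjusted p = 0.23), which did not pass. All 6 GDF15 mice lay above the pair-fed median, and 2 pair-fed mice lay within the GDF15 range.

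**Figure D2:**
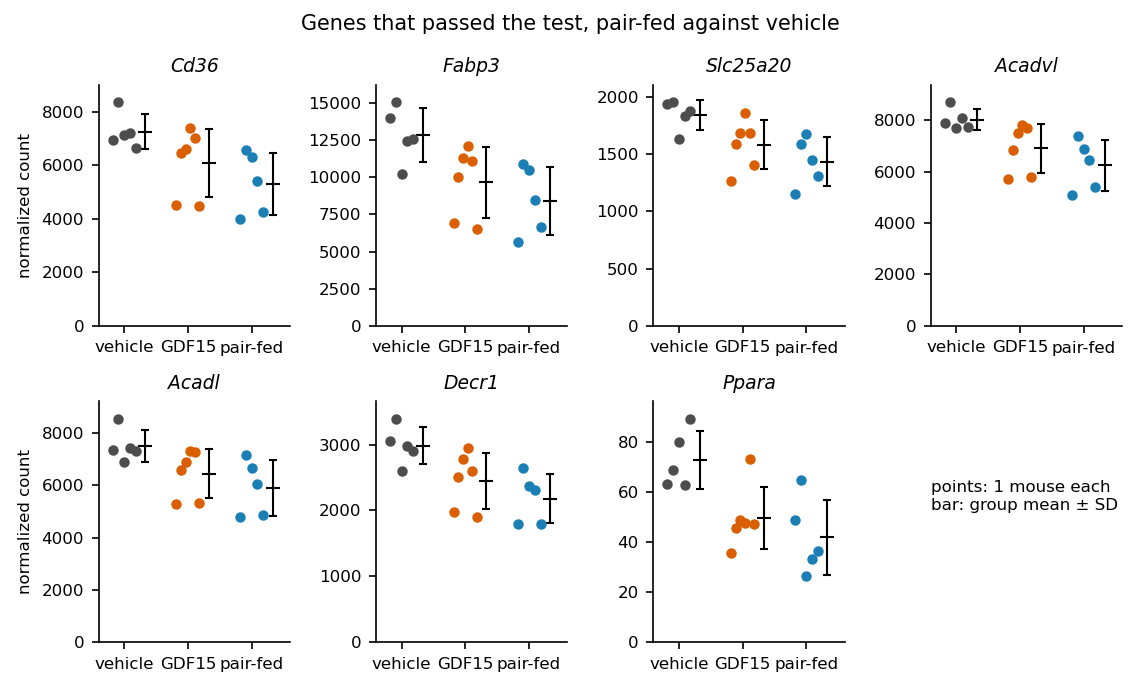
Normalized counts (vertical axes, from 0) of the 7 genes that passed the test in pair-fed against vehicle, with 1 point per mouse and the group mean ± SD beside the points. The vehicle and pair-fed points do not overlap for Cd36 and Acadvl and overlap for the other 5 genes, and the lowest GDF15 and pair-fed points lie below every vehicle point in each gene.

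In several libraries nearly all of the 34 genes lay on the same side of their medians. In GDF15 mouse 1, 33 of the 34 genes lay below their own median over the 16 libraries, and the same was seen in GDF15 mouse 6. In pair-fed mice 2, 5 and 6, 31, 32 and 31 genes did so. By contrast, 32 and 31 genes lay above their own median in GDF15 mice 4 and 5, and 34 of 34 in vehicle mouse 2. GDF15 mouse 3 had 24 and GDF15 mouse 2 had 7 above, and pair-fed mice 3 and 4 had 22 and 14. The vehicle mice had 16 to 34 above.

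The GDF15 mice differed widely among themselves. The mean log2 difference of the 34 genes from the vehicle mean was -0.50 and -0.43 in GDF15 mice 1 and 6 and lay between -0.17 and 0.01 in the other 4. In the pair-fed group it was -0.57, -0.46 and -0.29 in mice 2, 6 and 5 and -0.09 and -0.12 in mice 3 and 4. In vehicle mice it lay between -0.07 and 0.14. Pair-fed mouse 2 had the lowest value of all 16 libraries in 19 genes, pair-fed mouse 6 in 6 and GDF15 mouse 1 in 5. The depth of GDF15 mice 1 and 6 was 13822345 and 11506910 reads, within the range of the other libraries. The shallowest library, GDF15 mouse 4 at 9473999 reads, had 32 genes above their median. With log2 depth as a covariate, limma gave 5 calls in place of 7 in pair-fed against vehicle. The median log2 fold change in GDF15 against pair-fed was then 0.06 in place of 0.11, with 8 of 34 genes negative in place of 5. The part of depth in the low libraries was not tested.

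The spread between mice of these genes was wide in the GDF15 and pair-fed groups. The median SD of the log2 values was 0.216 in GDF15, 0.237 in pair-fed and 0.113 in vehicle mice over the 31 genes that averaged 250 normalized counts or more. Over all 5412 tested genes at that level it was 0.108, 0.103 and 0.092. The cause of the spread between mice of a group was not tested.

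**Figure D3:**
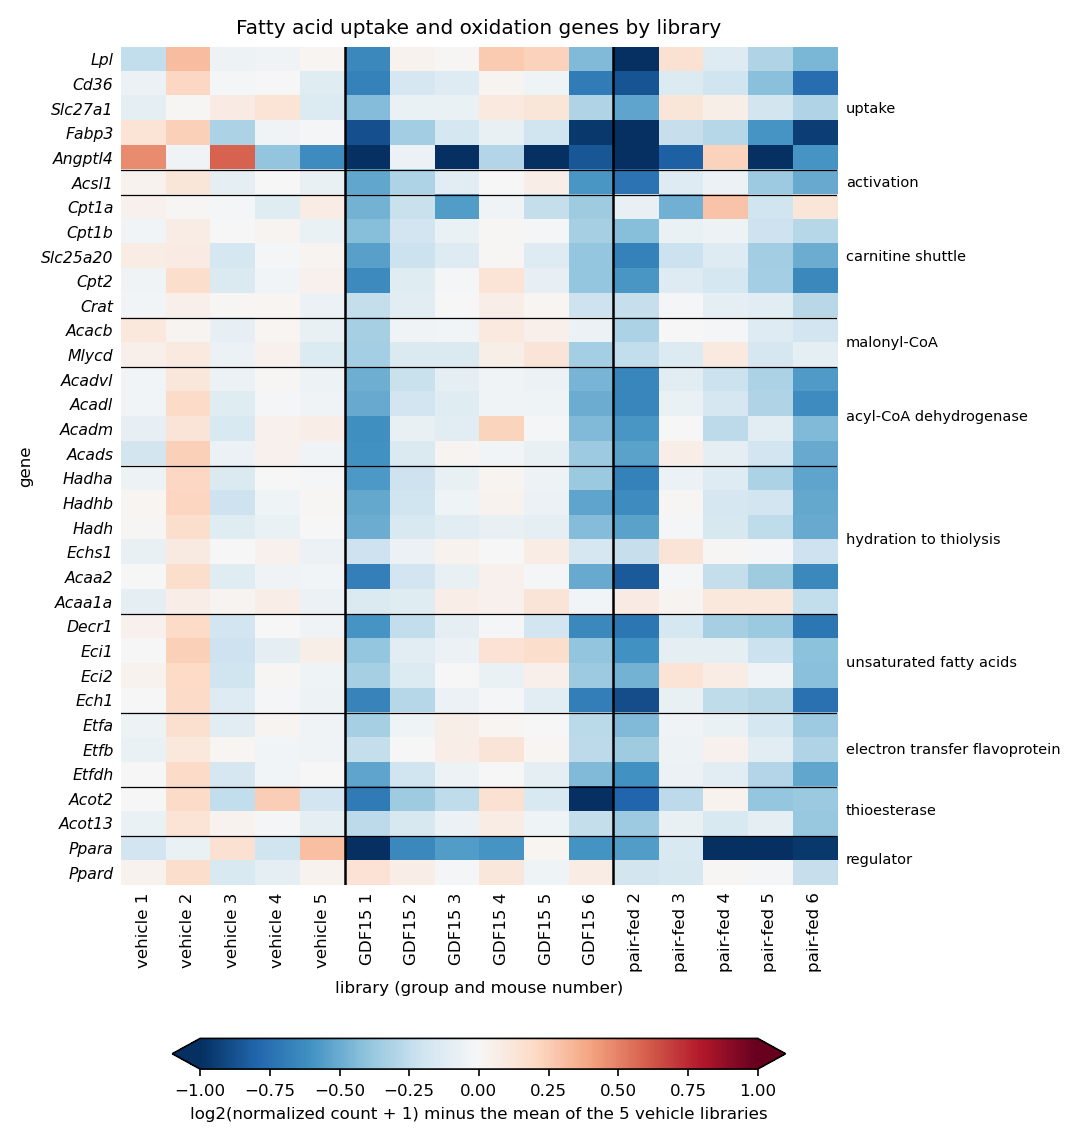
Difference of log2(normalized count + 1) from the mean of the 5 vehicle libraries, for each of the 34 genes (rows, by role) in each of the 16 libraries (columns, by group). Colours saturate at 1 in either direction. The columns of GDF15 mice 1 and 6 and of pair-fed mice 2, 5 and 6 are blue from top to bottom with few exceptions, while those of GDF15 mice 3, 4 and 5 and of pair-fed mice 3 and 4 are nearer to the vehicle columns.

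Other genes of fatty acid metabolism, 66 in all and none of them among the 34, were examined in the same fit. In pair-fed against vehicle 3 fell (4.55%, where 3.17% of all tested genes did), 1 rose, and the median log2 fold change was -0.08. Those that fell were Plin5, which coats the lipid droplet at its contact with mitochondria (-0.70, adjusted p = 0.0689), and the peroxisomal genes Hsd17b4 (-0.32, adjusted p = 0.04) and Abcd3 (-0.24, adjusted p = 0.0467), by limma. Vldlr, a lipoprotein receptor, rose (0.25, adjusted p = 0.0867). An unadjusted p under 0.05 was reached there by 19 of the 66 (28.8%), where 18.9% of all tested genes did so. Plin5 gave 698, 851, 704, 667 and 705 normalized counts in vehicle and 297, 636, 586, 431 and 368 in pair-fed mice, without overlap. In both comparisons of GDF15, 0 of the 66 genes were called by limma, with 7 (10.6%) against vehicle and 11 (16.7%) against pair-fed at an unadjusted p under 0.05, where 1308 and 1559 of the 11841 tested genes did so. Without the 4 libraries that stood apart, 0 of the 66 were called by limma in any comparison, and Plin5 was at -0.24 (adjusted p = 0.839) in pair-fed against vehicle.

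By role, the 10 peroxisomal genes had log2 fold changes of -0.32 to 0.16 in pair-fed mice and the 7 PPAR targets of -0.70 to 0.08. The 3 remaining shuttle genes, which include the peroxisomal carnitine octanoyltransferase Crot, had positive values of 0.13 to 0.34, and 0 of the 3 passed. The 20 reference genes of the citric acid cycle and respiratory chain had a median of -0.11 in pair-fed against vehicle, with 19 of 20 negative and 1 called, Cycs (-0.25, adjusted p = 0.0178), and 7 of 20 (35.0%) had an unadjusted p under 0.05. Their median was -0.05 in GDF15 against vehicle and 0.04 in GDF15 against pair-fed, with 0 called in each by limma and 2 and 0 at an unadjusted p under 0.05. Without the 4 libraries that stood apart, 0 of the 20 were called by limma in any comparison, and the median in pair-fed against vehicle was 0.00. The mean of these 20 genes also lay lowest in pair-fed mouse 6 (-0.25), GDF15 mouse 1 (-0.21), pair-fed mouse 2 (-0.17) and GDF15 mouse 6 (-0.12).

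**Figure D4:**
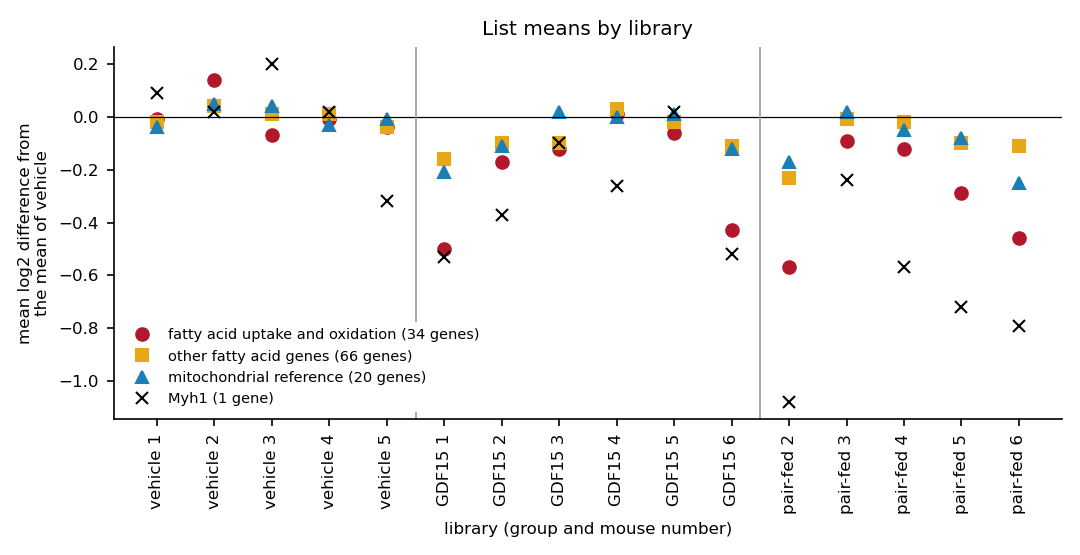
Mean difference of log2(normalized count + 1) from the vehicle mean in each library for the 34 genes (red circles), the 66 other fatty acid genes (yellow squares) and the 20 mitochondrial reference genes (blue triangles), and the difference for Myh1 alone (crosses). The 34 genes reach -0.50 and -0.57 in the lowest GDF15 and pair-fed libraries, where the reference genes are at -0.21 and -0.17.

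Some fast-fibre transcripts differed between pair-fed and vehicle mice, and slow-fibre transcripts varied within groups. Myh1, the myosin heavy chain of IIx fibres, fell in pair-fed mice (log2 fold change -0.68, SE 0.14, adjusted p = 0.0123), and its difference from the vehicle mean was -1.08, -0.72 and -0.79 in pair-fed mice 2, 5 and 6 and -0.53 and -0.52 in GDF15 mice 1 and 6. It was also -0.57 in pair-fed mouse 4 and -0.37 in GDF15 mouse 2, whose means over the 34 genes were nearer to vehicle. Actn3, a gene of fast glycolytic fibres, and Ckm, a general muscle fibre gene, rose in pair-fed mice (0.33, adjusted p = 0.0167, and 0.15, adjusted p = 0.0997, by limma). Actn3 was lower in GDF15 than in pair-fed mice (-0.27, adjusted p = 0.0678, by limma). Myh2, the IIa myosin, which was chosen after its values were seen, had -0.61 (adjusted p = 0.216), with its lowest values of 9789, 14475 and 13481 normalized counts in pair-fed mice 2 and 5 and GDF15 mouse 6. The 8 slow fibre markers gave 0 calls, and their summed level was 1246 to 4243 normalized counts in pair-fed, 1376 to 3625 in GDF15 and 1645 to 2469 in vehicle mice. GDF15 mouse 1 was high in them, at 3625, while low in the 34 genes, and Myh2 stood at -0.17 from the vehicle mean in it. Without the 4 libraries that stood apart, 0 muscle fibre or slow fibre markers were called by limma, and Myh1 was at -0.40 (adjusted p = 0.464), Actn3 at 0.19 (adjusted p = 0.471) and Ckm at 0.11 (adjusted p = 0.591) in pair-fed against vehicle. Actn3 was then at -0.15 (adjusted p = 0.744) in GDF15 against pair-fed. The part of fibre composition in the differences above was not tested.

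Of the 6 endothelial markers 1, Kdr, was called lower in each comparison with vehicle (16.7%). Of all tested genes, 0.338% were called lower in GDF15 and 3.17% in pair-fed mice. All 6 endothelial markers had negative log2 fold changes in both comparisons with vehicle, with Emcn at -0.07 in each. Of all tested genes, 49.6% were negative in GDF15 and 49.8% in pair-fed mice. The summed level of the 6 overlapped between groups, at 5089 to 6064 normalized counts in vehicle, 4313 to 5344 in GDF15 and 4471 to 5368 in pair-fed mice. Kdr, the VEGF receptor of endothelium, fell in GDF15 (-0.66, adjusted p = 0.00116) and in pair-fed mice (-0.50, adjusted p = 0.00473), and the other 5 did not pass. Without the 4 libraries that stood apart Kdr stayed called in GDF15 (-0.64, adjusted p = 0.00576) and not in pair-fed mice (-0.35, adjusted p = 0.362). Cd36 and Lpl are also made by endothelial cells and adipocytes. The 6 adipocyte markers summed to 85.8 to 402 normalized counts in vehicle, 50.8 to 1193 in GDF15 and 216 to 600.2 in pair-fed mice, with 0 called. The macrophage, red blood cell and Schwann cell markers likewise gave 0 calls among 5, 3 and 4 tested genes in each comparison by limma, with at most 2 in a list at an unadjusted p under 0.05. No marker of these lists was at 0 in all libraries of a group, and the part of these cells in the differences was not tested.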

How the data were processed

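RNA of the tibialis anterior was sequenced as paired reads from directional libraries, 1 per mouse. Trim Galore, Salmon and DESeq2 were used by the authors to trim reads, quantify transcripts and scale libraries, and the processing notes name the build mm10. Versions, annotation and strand setting are not given in the sources used here. The authors deposited log2 values in the form of a variance stabilizing transformation, between 7.32 and 19.96, of which 8459 lay at the lowest value. These were transformed back with the closed-form inverse, which returned the deposited values within 1.8e-15. Of the low values of single-transcript genes, 87.9% to 96.3% per library were whole reads within 0.1, against 19.9% to 27.0% in genes with more than 4 transcripts, so count tests were not run. Approximate depth was each library's total normalized count over the normalized value of 1 read, and genes with few counts carry more counting noise.

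Genes averaging 10 or more normalized counts entered limma 3.58.1 in R 4.3.3 as log2(normalized count + 1) (trend, all 3 groups in 1 fit, two-sided, Benjamini-Hochberg), and a fold change on this scale understates the change of low genes. Genes were called at an adjusted p under 0.1, and, as in the study, also by a size of the log2 fold change over 0.6. The fit was tested on simulated data. Summaries used Python 3.11.15, pandas 2.3.3, numpy 2.4.6, scipy 1.17.1 and matplotlib 3.10.9. Levels per kilobase used the longest principal transcript of GENCODE vM21. Mouse numbers are shared between groups, but belong to different animals.

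The 34 genes, the other lists and the rule for named genes were chosen with earlier results of these data known. Values are given for genes called in any comparison, genes without overlap between groups and the gene of highest mean count in each role. Those of single mice for Angptl4 are given outside this rule. Genes of the other lists are named where they were called, or, for markers, where their level moved with a group. Alternatives were other pseudocounts, filters, scalings and variance models, the deposited log2 values, fits of only the groups compared, a replicate block, a depth covariate and each library left out.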

Additional observations from a re-analysis of the deposited data

Results flagged for a closer look

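Each of the 34 genes was screened in each group for a lowest or highest mouse that lay far from the others of its group (Dixon's ratio at the 95% level, on the log2 scale). Of 102 groups of values 2 were picked out, and chance alone picks out about 1 in 20. Acacb in GDF15 mouse 1 had 4282 normalized counts, where the other GDF15 mice had 5188 to 5769. Acaa1a in pair-fed mouse 6 had 604.0 normalized counts, where the other pair-fed mice had 731.7 to 773.9.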

How the results depend on the processing

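Both comparisons of GDF15 gave 0 calls among the 34 genes under every alternative run. In pair-fed against vehicle the 7 calls became 3 without the variance trend, 12 with library quality weights, 11 in a fit of only the 2 groups compared and 0 without the 4 libraries that stood apart, an alternative chosen after the data were seen that leaves fewer mice. Leaving out each library in turn gave 1 to 17 calls, and 0 to 3 past both thresholds in place of 2. That second count was 1 with the deposited log2 values, 1 without the trend, 1 with the mouse number as a replicate block and 0 without the 4 libraries. The replicate block gave 6 calls at the adjusted p alone, with Fabp3 and Acadl lost and Cpt2 gained. Whether the mouse numbers record which mice were matched in food is not stated in the sources used here. Over all tested genes, the deviations of same-numbered mice from their group means correlated between -0.099 and 0.067, which cannot decide it. Without the 4 libraries the log2 fold change in GDF15 against pair-fed turned negative for Cd36 (-0.03), Fabp3 (-0.09), Acadvl (-0.01) and Acadl (-0.06). That fit left out the 3 lowest pair-fed mice and kept the low GDF15 mouse 6, so these signs cannot be told apart from that choice. For the 7 genes no other alternative turned a direction. In pair-fed against vehicle the adjusted p ranged over all the alternatives up to 0.829 for Cd36 and 0.479 for Ppara, and the log2 fold change of Ppara ran from -1.01 to -0.23, the last with the deposited log2 values, where Fabp3 (-0.62) was larger in size. Why calls changed was not tested beyond the number of mice and genes in each fit. Depth limits Ppara and Angptl4 most, which have few counts.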
